A study of Mus musculus with 6 samples.

Results

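The transcriptome of liver mast cell progenitors (MCPs) was set against that of liver erythro-myeloid progenitors (EMPs), each sorted from the fetal liver of mouse embryos at embryonic day E11.5 and sequenced as 1 bulk RNA library. These are 2 of the 6 libraries of the series. All 6 came from embryos of a C57BL/6xFVB background, and in all of them cells were sorted with a Csf1r-iCre fate-mapping model, in which Cre recombinase placed under Csf1r control marks cells and their progeny. The remaining 4 were macrophage-labelled cells of the E11.5 liver, MCPs sorted from limbs at E11.5 and again at E14.5, and cells of E16.5 skin whose title says MCPs and whose description says mast cells. They are used here only to see where the genes of the liver comparison stood elsewhere. The labels do not say how many embryos were pooled, when recombination was induced or which antibodies defined each gate. The MCP library carries the description LiB7_pos and the EMP library LiB7_neg. If this stands for a gate on integrin beta 7, the difference of Itgb7 was set by the sort.

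The table held 17909 genes, and 3369 of them reached an FPKM (fragments per kilobase of transcript, scaled to the mapped fragments of the library) of 10 in MCPs or EMPs, 2261 of these in both, 452 in the MCP library alone and 656 in the EMP library alone. A difference is that of log2(FPKM + 1), MCP minus EMP, so that 0 means equal values, and a gene was called when it reached 2, a 4-fold change, in either direction. All counts of genes past 2-fold or 4-fold rest on differences of 1 and 2 on this scale, which the added 1 makes smaller for low genes. Folds of single genes are ratios of FPKM without the added 1, so a low gene can have a ratio above 2 or 4 and still not be counted. With 1 library a group there is no replicate, no standard error and no test, and all statements below describe these libraries. Depth, estimated from the steps between low FPKM values, was 12150000 to 12700000 mapped fragments for EMPs and 11850000 to 12450000 for MCPs, depending on whether 50 bases were taken off each transcript. A single fragment on a 2 kb transcript was then worth an FPKM of 0.0394 to 0.0422. A listed 0 sets no bound on expression and can be a failed estimate: the proteasome gene Psmc1, the DNA polymerase gene Pole and Matr3, a nuclear matrix protein gene, were listed at 0 in EMPs and the mitochondrial ribosome gene Mrpl28 in MCPs, all genes of general cell function. The 95% intervals given with folds are exact binomial intervals on the fragments so implied, and they cover counting error only.

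EMPs arise in the yolk sac, seed the fetal liver and give rise to red cells, megakaryocytes, granulocytes, macrophages and mast cells before stem cells take over. Mast cells are tissue-resident cells that carry the stem cell factor receptor Kit and the high-affinity IgE receptor and store proteases, histamine and heparin in granules. They need the factors GATA2 and MITF, leave the liver as immature progenitors and fill their granules after entering tissue, while neutrophil granulocytes make their first granules, with myeloperoxidase and serine proteases, at the promyelocyte stage.

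The labels were first checked against cell type markers. Of 10 mast cell markers, 7 had an FPKM of at least 1 in the MCP library and 5 in the EMP library, and their summed FPKM was 381 against 129. Cma1, Mcpt4 and Tpsb2, proteases of mature mast cells, were listed at 0 in both, and so were 9 of 15 mast cell protease genes in all. Neutrophil markers were present in both libraries: 10 of 10 reached 1 in EMPs with a sum of 10372 and 9 of 10 in MCPs with a sum of 1051. Of 5 markers of EMPs and progenitors, 5 reached 1 in EMPs and 4 in MCPs, with sums of 199 and 187. Cd34 (73.8 in EMPs and 22.3 in MCPs), Hmga2 (40.0 and 28.0) and Cd93 (5.51 and 0.89) were lower in MCPs. Kit (41.7 and 95.3) and Adgrg1 (37.63 and 41.05) were higher. Erythroid markers summed to 50.7 in EMPs and 253 in MCPs. Defining markers of hepatocytes, endothelium and stroma were near 0 in both, with sums of 0.83 and 3.09, 2.60 and 1.82, and 0.07 and 0.19. The longer lists of these cells had few expressed members. The 3 stromal genes had a median difference of 1.24, with Sparc at 1.10 and 4.39 and Pdgfrb at 0.92 and 3.52, and the 3 hepatocyte genes one of 0.70, with Trf at 6.27 and 10.2. Summed over each list, FPKM was 8.27 in EMPs and 13.7 in MCPs for hepatocytes, 14.4 and 17.9 for endothelium, and 3.78 and 8.84 for stroma, and the part of such cells in the results was not tested. In pooled RNA, fewer cells of a type and less RNA per cell cannot be told apart, and this holds for every lineage named below.

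Of the differences between the 2 libraries, 4 are named first, and others, among them base composition and glycolysis genes, follow below. In MCPs, genes of mast cell receptors and carboxypeptidase were higher, genes of the neutrophil primary granule and of receptors for myeloid growth factors were lower, and many erythroid genes were higher. Among transcription factors Spi1 and Cebpe were lower while Gata1, Klf1, Gfi1b and Tal1 were higher. The list that holds Gata1 was split, with 7 of 25 expressed members at least 2-fold higher and 5 lower (Lyl1, Etv6, Fli1, Erg and Stat5a). Of the 3369 genes, 60 (1.78%) were called higher in MCPs and 104 (3.09%) lower, and at 2-fold these counts were 287 (8.52%) and 534 (15.9%). After median-of-ratios scaling, with size factors that differ by 0.03 on the log2 scale, 58 (1.72%) and 87 (2.58%) were called, and all of these were among the genes called unscaled. The median difference was −0.18, and 63.4% of the called genes were lower. Rescaling both libraries to equal sums moved the median to −0.04 and called 77 genes higher and 85 lower, 52.5% of them lower.

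**Figure D1:**
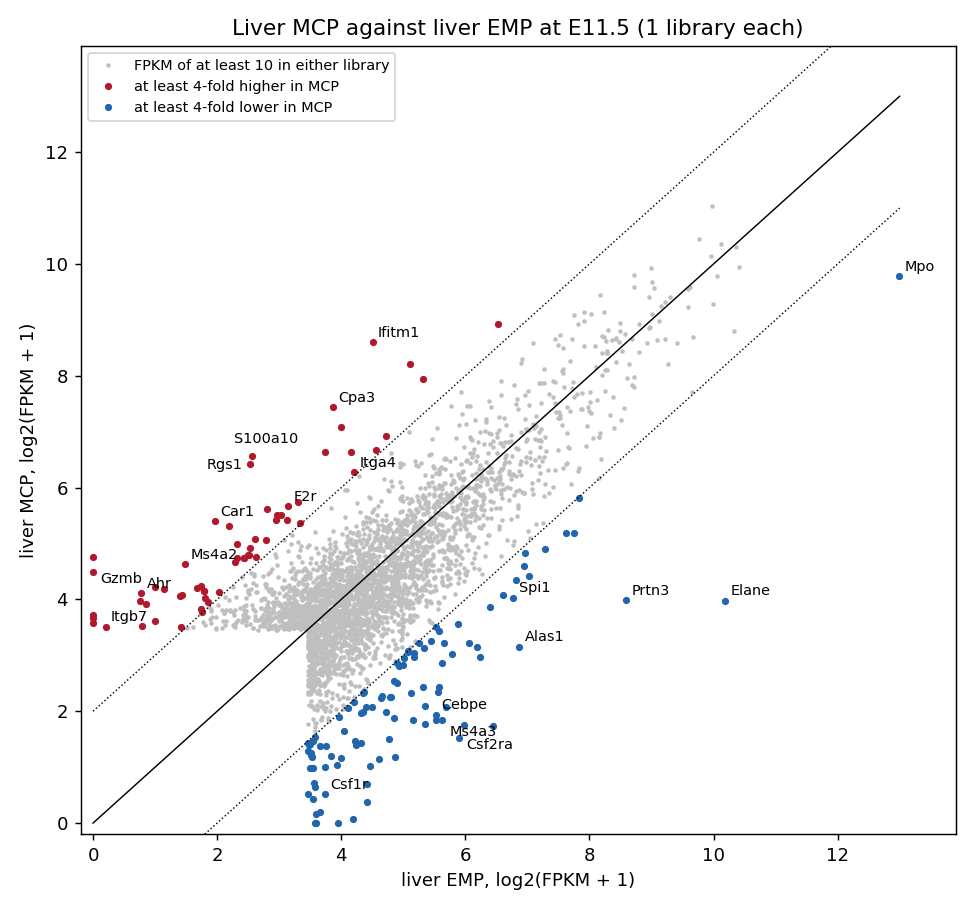
log2(FPKM + 1) in liver EMPs (horizontal axis) and liver MCPs (vertical axis) for the 3369 genes that reached an FPKM of 10 in 1 of them or both; red points are at least 4-fold higher and blue points at least 4-fold lower in MCPs, the solid line marks equal values and the dotted lines 4-fold. Mpo, at 8174 in EMPs, lies farthest right among the 104 blue points, while the 60 red points lie at low or intermediate levels in EMPs.

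Genes close to the limits were as follows. Bcr (10 in EMPs and 4.5 in MCPs), Chil1 (10 and 0.44) and Stt3b (6.75 and 10) just reached the FPKM limit, and Helz, Snx9 and Dot1l, at 9.99 in EMPs, just missed it. Fam98b, Fbrs and Msrb1 lay just inside 4-fold with differences of −2.001, −2.018 and −2.020, and Megf9 (−1.995), Tnfaip3 (1.997) and Tmem64 (1.998) just outside. As a measure of scatter, differences of the 31 proteasome genes had an SD of 0.98 and those of the 38 expressed mitochondrial ribosome genes one of 0.80. Each list had 1 gene past 4-fold, Psmc1 (0 and 26.03, a difference of 4.76) and Mrpl28 (5.95 and 0, −2.80). The 67 genes of both lists that were above 0 in both libraries had a median of 0.13 with an SD of 0.61, and 6 of them passed 2-fold and 0 passed 4-fold.

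Differences also went with base composition. Across 3272 genes with a transcript model, Spearman's rho between the difference and the GC content of the transcript was −0.42, a description across genes, which are not independent replicates. With the genes cut into 5 classes of equal size, from the lowest GC content to the highest, the median difference was 0.27, 0.10, −0.11, −0.41 and −0.78. Genes called higher had a median GC content of 46.7% (57 genes), genes called lower of 54.0% (103 genes) and all genes of 49.5%. The part of GC content in the results was not tested, but each difference was also taken against the median of genes of like GC content, an adjustment chosen after the data had been seen. So adjusted, 60 genes (1.83%) were higher and 87 (2.66%) lower. Of the genes called before and given a GC value, 49 of 57 and 77 of 103 were called again, and all 57 remained positive and all 103 negative.

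**Figure D2:**
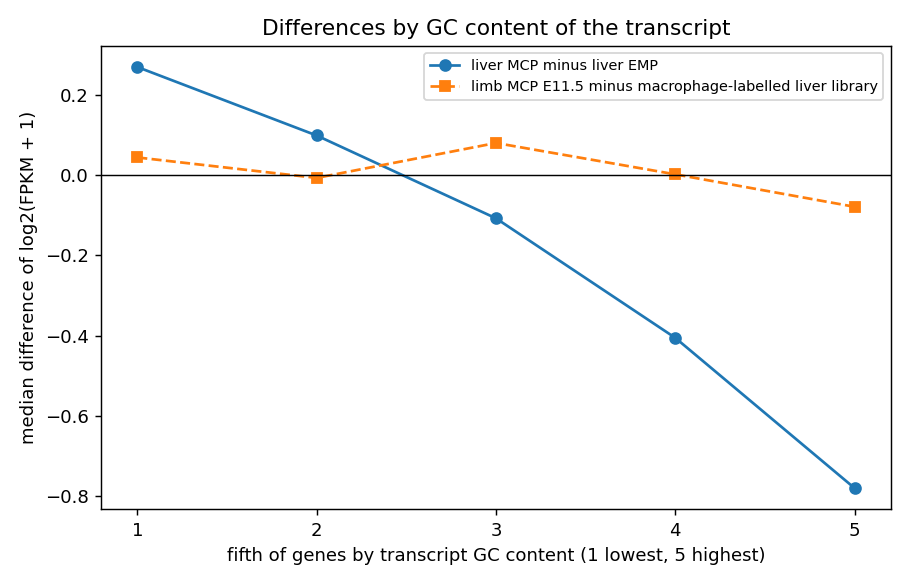
Median difference of log2(FPKM + 1) (vertical axis) in 5 equal classes of genes ordered by the GC content of their longest coding transcript (horizontal axis), for liver MCPs minus liver EMPs (circles) and for limb MCPs at E11.5 minus the macrophage-labelled liver library (squares). The liver comparison runs from 0.27 to −0.78, and the other stays between −0.08 and 0.08.

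The high-affinity IgE receptor was represented above all by its beta chain. Ms4a2, which encodes that chain, read 1.80 in EMPs and 23.8 in liver MCPs, with 0.62 in the macrophage-labelled library, 28.6 and 41.0 in limb MCPs at E11.5 and E14.5 and 47.3 in skin. All 4 mast cell lineage libraries were above both other liver libraries, and the liver MCP value was 13.2-fold that of EMPs (10.02 to 18.0). Fcer1a, the IgE-binding alpha chain, was listed at 0 in EMPs and read 1.55 in liver MCPs, against 21.9 in skin, a low level beside that of Ms4a2. Fcer1g, the gamma chain shared with other Fc receptors, was alike in both, at 68.3 and 74.1. Among adaptors of the receptor, Lat was 6.52-fold higher (1.23 and 8.02) and Lat2 6.05-fold higher (0.66 and 3.99). The kinase Syk (19.4 and 7.14), Plcg2 (36.4 and 11.96), Pik3cd (9.67 and 3.07) and the protein kinase C gene Prkcb (3.56 and 0.68) were lower. The list of 20 expressed IgE receptor and signalling genes therefore split, with 4 members at least 2-fold higher and 4 lower and a median of 0.05, or −0.63 over members that reached an FPKM of 30. Members of a list counted as expressed from an FPKM of 1 in MCPs or EMPs. All 9448 genes at that level held 872 (9.23%) that were 2-fold or more higher and 1092 (11.6%) that were lower, and 132 (1.4%) and 162 (1.71%) were past 4-fold, around a median of −0.08.

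Surface receptors of mast cells were higher as a list, with 9 of 15 expressed members at least 2-fold higher, 1 lower and a median of 1.16 (1.18 adjusted for GC content). The median fell to 0.25 with no expression filter and to 0.46 with 5 added to each FPKM in place of 1. Among the higher members, Il1rl1, Cd200r3, Adora2b and Ptger3 counted as expressed only through their values in MCPs. Il1rl1, the receptor for interleukin 33, read 0.19 in EMPs, 7.60 in liver MCPs, 0 in the macrophage-labelled library, 8.31 and 28.2 in the limb at E11.5 and E14.5 and 21.1 in skin, and was 40.0-fold higher in liver MCPs (23.1 to 79.4). Kit was already high in EMPs: it read 41.7 there, 95.3 in liver MCPs, 9.96 in the macrophage-labelled library, 155 and 284 in the limb and 239 in skin. Its 2.29-fold difference was thus far smaller than that of Ms4a2 or Il1rl1, and below 4-fold. Cd200r3, an activating receptor of mast cells and basophils, was 13.4-fold higher (0.68 and 9.10), the adenosine receptor gene Adora3 5.18-fold (1.46 and 7.57), the nucleotide-sugar receptor gene P2ry14 5.07-fold (2.04 and 10.4) and the melanocortin receptor gene Mc5r 3.55-fold (8.89 and 31.6). Cd33, an inhibitory sialic acid receptor, was the lower member, at 10.9 and 2.31.

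Granule content was limited to few genes. Cpa3, mast cell carboxypeptidase, read 13.6 in EMPs, 172 in liver MCPs, 10.3 in the macrophage-labelled library, 417 and 1856 in the limb and 13494 in skin. The liver MCP value was 12.7-fold that of EMPs (11.1 to 14.54) and the lowest of the 4 mast cell lineage libraries. Gzmb, granzyme B, was listed at 0 in EMPs and read 21.5 in liver MCPs, 0.31 in the macrophage-labelled library, 56.4 and 12.3 in the limb and 0 in skin, so that it was present in the 3 MCP libraries of liver and limb and at most 0.31 in the other 3. Of 15 mast cell protease genes, only these 2 reached an FPKM of 1 in MCPs or EMPs. Hdc, which makes histamine, was alike in both at 60.5 and 63.7, whereas the vesicular monoamine transporter gene Slc18a2 was listed at 0 in EMPs and read 1.59 in MCPs. Hs3st1 and Glce, enzymes of heparan sulfate synthesis, were also listed at 0 in EMPs and read 2.11 and 3.03. Srgn, the serglycin core that holds granule content, was 411 and 227, Rab27a, which tethers granules, 41.6 and 11.45, and the protease inhibitor gene Serpinb1a 49.3 and 8.31, all lower in MCPs. Among 19 expressed granule mediators, 3 passed 2-fold upward and 2 downward (median 0.07, or −0.84 over members that reached an FPKM of 30). Alox5, which starts leukotriene synthesis, was 5.77-fold higher (4.64 and 26.8), while Lta4h and Ptgs1, which make leukotriene B4 and prostaglandin H2, were lower (37.3 and 14.6, 28.8 and 7.71).

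Homing receptors differed in a few members. Itgb7, the integrin beta 7 chain, read 0.15 in EMPs, 10.4 in liver MCPs, 0.72 in the macrophage-labelled library, 18.5 and 16.4 in the limb and 1.39 in skin. Its partner Itga4, the alpha 4 chain, read 17.4, 76.5, 10.7, 80.5, 90.1 and 11.9 in the same order and was 4.39-fold higher in liver MCPs (4.19 to 4.61). Both chains were high in the 3 MCP libraries of liver and limb and lower in the other 3, and the sort may have set the first of them. Of 21 expressed integrin and adhesion genes only these 2 were at least 2-fold higher, and 3 were lower, among them Itga6 (8.27 and 2.30) and Itgb5 (2.69 and 0.58). The list thus stood near all expressed genes, of which 9.23% were higher and 11.6% lower, and its median was −0.16. Of 17 chemoattractant receptors, 6 passed 2-fold upward and 3 downward. The fractalkine receptor Cx3cr1 (0.73 and 10.5), Ccr2 (1.94 and 8.59), the complement receptor C3ar1 (0.11 and 3.05), S1pr1 (1.79 and 6.91) and Ccrl2 (0.78 and 4.81) were higher, and Ccr8 was listed at 0 in EMPs and read 1.23. Cxcr2, a neutrophil receptor (22.3 and 7.17), Cxcr4, which holds progenitors in the niche (31.2 and 14.3), and the leukotriene B4 receptor Ltb4r1 (7.21 and 1.55) were lower.

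Receptors for myeloid growth factors were among the genes that were lowest in MCPs relative to EMPs. Csf2ra, the specific chain of the GM-CSF receptor, read 58.3 in EMPs, 1.86 in liver MCPs, 65.5 in the macrophage-labelled library, 2.69 and 6.11 in the limb and 14.3 in skin, a 31.4-fold lower value in liver MCPs (22.9 to 43.7). Csf1r, the receptor for macrophage colony-stimulating factor, read 12.3, 0.43, 34.1, 0.50, 0 and 0.13 in that order and was 28.7-fold lower (19.1 to 45.0). Csf3r, the G-CSF receptor of neutrophils, was 20.5-fold lower (21.1 and 1.03). All 3 receptors were high in EMPs and in the macrophage-labelled library and below 3 in the MCP libraries at E11.5. Il6ra (10.6 and 1.26), Il6st (3.83 and 0.55) and the tumour necrosis factor receptors Tnfrsf1a (14.6 and 2.72) and Tnfrsf1b (9.98 and 1.46) were lower too. The common beta chain Csf2rb was alike, at 54.5 and 53.4, and its paralog Csf2rb2, which serves interleukin 3, read 0.42 and 4.30, although the paralogs share sequence and single values are uncertain. Il2rg, the common gamma chain, was 3.93-fold higher (18.6 and 72.8) and stood at 252 and 186 in the limb. Il7r (0.68 and 3.93) and the erythropoietin receptor Epor (1.46 and 5.29) were higher as well. Over the 37 expressed cytokine and growth factor receptors 8 were at least 2-fold higher and 10 lower, with 1 and 6 past 4-fold and a median of −0.17.

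Transcription factors of the mast cell, erythroid and megakaryocyte lineages differed in both directions. Of 25 expressed members 7 were at least 2-fold higher and 5 lower, and the median was 0.19, which became −1.31 over members that reached an FPKM of 30. Gata1, on chromosome X, read 3.58 in EMPs, 14.9 in liver MCPs, 4.36 in the macrophage-labelled library, 16.3 and 12.3 in the limb and 2.95 in skin, 4.16-fold higher in liver MCPs (3.26 to 5.34). Gata2 differed less, at 10.98 and 16.9 in the liver (1.54-fold, 1.37 to 1.74), with 1.09 in the macrophage-labelled library, 66.2 and 142 in the limb and a listed 0 in skin. The erythroid factor Klf1 was 4.41-fold higher (4.83 and 21.3), the repressor Gfi1b 3.78-fold (4.95 and 18.7), Tal1 2.94-fold (6.87 and 20.2) and the homeobox gene Meis1 2.60-fold (4.46 and 11.6). Id2, an inhibitor of helix-loop-helix factors, read 0.64 in EMPs, 8.84 in liver MCPs, 10.1 in the macrophage-labelled library, 14.4 and 22.8 in the limb and 35.3 in skin, so that EMPs were the low library and not MCPs the high ones. Lmo2 (21.6 and 29.2), Runx1 (16.1 and 20.3), Ldb1 (12.5 and 8.84), Nfe2 (23.9 and 20.7) and Myb (154 and 118) lay within 2-fold. Lyl1 (20.3 and 4.90), Etv6 (34.7 and 11.3), Fli1 (34.6 and 13.4), Erg (20.5 and 7.84) and Stat5a (5.85 and 1.82) were at least 2-fold lower.

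Factors of granulocytes and macrophages were mostly lower. Spi1, which encodes PU.1, read 108 in EMPs, 15.4 in liver MCPs, 99.1 in the macrophage-labelled library, 15.9 and 10.2 in the limb and 3.34 in skin, 7.04-fold lower in liver MCPs (6.32 to 7.88). Cebpe, needed for late granulocyte differentiation, read 45.1, 2.83, 47.0, 1.32, 0 and 0 in that order, 15.9-fold lower (11.6 to 22.1). For both genes EMPs and the macrophage-labelled library were high and the liver and limb MCPs at E11.5 close to each other. Gfi1, a partner of granulocyte maturation, was 5.85-fold lower (10.01 and 1.71), Irf8, a monocyte factor, 3.81-fold (12 and 3.15), and Klf2 2.69-fold (29.5 and 10.98). Zeb2 lay within 2-fold (11.8 and 9.49), and Runx3 (3.69 and 9.52) and the immediate early gene Egr1 (30.8 and 84.3) were higher. The 14 expressed members had a median of −0.61 (−0.46 adjusted for GC content), with 2 at least 2-fold higher, 6 lower and 3 past 4-fold, all lower.

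The list of neutrophil primary granule genes had the lowest median of all lists. It was written with earlier results of these data known. Besides granule proteins such as Elane, Mpo, Prtn3 and Ctsg, it holds genes of other products, among them Ms4a3, Clec12a, Igsf6 and Gda. Of 19 genes, all expressed, 15 were at least 2-fold lower and 14 at least 4-fold lower, 0 were 2-fold higher, and the median was −3.27 (−2.83 adjusted for GC content). Elane, neutrophil elastase, read 1166 in EMPs, 14.7 in liver MCPs, 732 in the macrophage-labelled library, 15.1 and 0.10 in the limb and 0.12 in skin. It was 79.2-fold lower in liver MCPs than in EMPs (68.0 to 92.4), at about the level of limb MCPs of the same age. Mpo, myeloperoxidase, had the highest FPKM of the compared genes in EMPs: it read 8174 in EMPs, 878 in liver MCPs, 3621 in the macrophage-labelled library, 417 and 1.25 in the limb and 1.03 in skin. At 9.31-fold lower it still stood at 878 in liver MCPs, above Cpa3. Prtn3, proteinase 3, was 25.9-fold lower (383 and 14.8) and Ctsg, cathepsin G, 36.7-fold lower (86.1 and 2.35). Ms4a3, a gene of granulocyte and monocyte progenitors, was 18.8-fold lower (48.6 and 2.58), Fcnb, ficolin B, 26.1-fold (62.0 and 2.37), and Mcemp1 67.7-fold (20.3 and 0.30). Gda, guanine deaminase, read 17.2 and 0.05, where the latter is close to a single fragment on a 2 kb transcript. Secondary granule and late neutrophil genes differed less, with 9 of 14 at least 2-fold lower, 1 higher and a median of −1.58. S100a8 (215 and 35.4), S100a9 (284 and 70.8) and Camp (28.2 and 6.45) were lower in MCPs, while Lcn2 (16.1 and 10.6) and Ngp (18.2 and 17.7) lay within 2-fold. Prg2 and Epx, of the eosinophil granule, were 151 and 40.4, and 57.7 and 10.9. The eosinophil ribonuclease genes Ear1 and Ear2 are paralogs that share reads, and their single values are uncertain (Ear2 3.48 and 9.01).

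Several of the called genes lie next to each other. The starts and ends come from the GENCODE M21 annotation of GRCm38, on which 161 called genes were placed, and 12 pairs of them lay within 100 kb, 11 with the same direction. A single run of 5 genes gave 9 of the 12 pairs. Close pairs among all compared genes were not counted, so these numbers have no background and do not show whether called genes lie closer than others. Prtn3 (chr10:79874476-79883174) and Elane (chr10:79886247-79888215) are 3073 bases apart on the plus strand and belong to that run with Fstl3, Prss57 and Palm, all 5 of them called lower. Mpo and Epx, peroxidases of neutrophils and eosinophils, are 59587 bases apart on chromosome 11 and were both lower. Car1 and Car2, on chromosome 3 with 77905 bases between them, were both higher. Ms4a2 (chr19:11615523-11623719) and Ms4a3 (chr19:11629496-11640851), tetraspan genes of the same family and strand, are 5777 bases apart and had opposite differences, 3.15 and −3.79.

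The bases before the starts of the paired genes and of Cpa3 are shown because these genes stand for the higher mast cell and the lower neutrophil transcripts of MCPs. Each runs 5′ to 3′ on the strand of its gene and comes from the 250 bases before the RefSeq start on GRCm38.p6. It was cut before the first base that lies in a GENCODE M21 exon of the gene. The stretches are chr19:11623720-11623969 (minus strand) for Ms4a2, chr19:11640852-11641101 (minus) for Ms4a3, chr3:20242182-20242431 (minus) for Cpa3, chr10:79886062-79886246 (plus) for Elane and chr10:79879417-79879613 (plus) for Prtn3. The Prtn3 stretch lies inside the longer annotated span of that gene, so it does not precede the first annotated exon of Prtn3. Capitals mark the GATA letters AGATAA or TGATAA and the PU.1 letters GAGGAAGT, on either strand.
Ms4a2: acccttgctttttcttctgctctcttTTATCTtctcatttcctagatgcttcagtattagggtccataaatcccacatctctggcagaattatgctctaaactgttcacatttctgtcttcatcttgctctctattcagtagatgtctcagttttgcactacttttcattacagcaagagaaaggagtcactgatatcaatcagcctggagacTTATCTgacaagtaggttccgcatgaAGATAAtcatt
Ms4a3: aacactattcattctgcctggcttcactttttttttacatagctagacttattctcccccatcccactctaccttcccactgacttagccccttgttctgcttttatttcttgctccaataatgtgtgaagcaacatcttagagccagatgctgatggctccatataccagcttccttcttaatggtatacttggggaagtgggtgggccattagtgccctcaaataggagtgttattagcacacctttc
Cpa3: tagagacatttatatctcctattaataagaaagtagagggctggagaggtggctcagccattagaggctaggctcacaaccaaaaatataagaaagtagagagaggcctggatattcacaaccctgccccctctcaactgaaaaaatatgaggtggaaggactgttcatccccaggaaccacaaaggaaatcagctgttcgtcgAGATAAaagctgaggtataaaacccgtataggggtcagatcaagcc
Elane: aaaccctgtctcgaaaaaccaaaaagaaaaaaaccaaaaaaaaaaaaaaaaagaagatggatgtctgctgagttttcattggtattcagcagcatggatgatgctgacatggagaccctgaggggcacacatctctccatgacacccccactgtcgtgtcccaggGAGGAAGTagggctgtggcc
Prtn3: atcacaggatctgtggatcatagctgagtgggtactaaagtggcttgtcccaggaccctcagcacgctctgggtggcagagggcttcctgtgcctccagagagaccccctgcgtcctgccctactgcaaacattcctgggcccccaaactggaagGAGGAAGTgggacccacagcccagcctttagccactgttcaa

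Ms4a2 held 3 GATA matches and Cpa3 1, Ms4a3 held none of either motif, and Elane and Prtn3 held 1 PU.1 match each. These matches are descriptions of letters, not sites. Over the 250 bases before the start, GATA letters were present in 6 of 41 matched genes called higher (14.6%), 13 of 82 called lower (15.9%), 251 of 2619 matched genes of the comparison (9.58%) and 17.0% of all 27025 starts. PU.1 letters were present in 2 (4.88%) and 4 (4.88%) of the called genes and in 2.44% of both the compared genes and all starts. The C/EBP letters TTGCNNAA, searched on both strands, may share end bases with the other motifs, and were present in 4 (9.76%) and 12 (14.6%), against 7.67% and 9.55%.

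Erythroid genes were mostly higher. Of 23 expressed members, 19 were at least 2-fold higher, 11 at least 4-fold higher and 0 at least 2-fold lower, with a median of 1.94 (2.10 adjusted for GC content). This list, too, was written with earlier results of these data known. Hbb-b2 and Hbb-bt had identical values (4.38 and 25.6 each), so they do not count as separate signals. Cd24a, Mns1, Atp1b2 and Blvrb were also among the members past 4-fold. Car1, carbonic anhydrase 1, read 2.91 in EMPs, 41.1 in liver MCPs, 0.08 in the macrophage-labelled library, 28.7 and 2.47 in the limb and 0 in skin. It was thus also high in limb MCPs at E11.5, whereas Ermap, a red cell membrane gene, read 3.91, 24.3, 0.19, 0.20, 0.04 and 0.07 and was high in liver MCPs alone among these libraries. The beta-globin gene Hbb-b1 was 4.75-fold higher (25.3 and 120) and Hba-a1 3.91-fold higher (15.7 and 61.1), both below 2 in the limb and skin libraries; globin paralogs share reads, and their single values are uncertain. Rhag, of the red cell membrane, was higher from a low level (0.52 and 6.83). Atp1b2, a sodium pump subunit, read 3.59, 38.6, 0.24, 31.7, 2.26 and 0.30, and Cd24a, a surface glycoprotein of many immature blood cells, 14.9, 134, 115.3, 189, 11.9 and 34.2. Mns1, grouped with these genes in the list, read 12.4, 98.9, 3.39, 76.8, 98.1 and 72.0, and so was high in all 4 mast cell lineage libraries. Of the members read here across libraries, only Mns1 was thus high in all 4 mast cell lineage libraries. Car1 and Atp1b2 were high in the MCP libraries at E11.5 and not later, and Ermap in liver MCPs alone. What red cell RNA contributed to the list was not tested. Without the erythroid genes, and with the rest rescaled to equal sums, 65 genes were called higher and 85 lower. Heme synthesis did not follow: Alas1, its first enzyme outside the red cell lineage, read 116, 7.91, 78.9, 5.76, 3.19 and 0.40 and was 14.6-fold lower in MCPs (13.1 to 16.4), while Alas2, the red cell enzyme, was 0.90 and 1.14.

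Megakaryocyte genes had 4 of 16 expressed members at least 2-fold higher and 2 lower (median 0.51). F2r, a thrombin receptor, was 6.34-fold higher (7.83 and 49.7) and Ppbp, a platelet chemokine, 15.9-fold higher from a low level (0.38 and 6.03). Among macrophage and monocyte genes 5 of 13 were at least 2-fold lower and 2 higher (median −0.65, or 0.13 over members that reached an FPKM of 30), and Lyz2 (227 and 55.1), Grn (28.7 and 6.28) and Ly6c2 (9.59 and 0.70) were lower besides Csf1r. The complement genes C1qa and C1qb were listed at 0 in both libraries. Mcpt8 and Prss34, which define basophils, did not reach 1 in either. Of the 5 expressed genes on the basophil list, 3 were at least 2-fold higher and 1 lower, with a median of 1.90. Cd200r3 (0.68 and 9.10), Csf2rb2 (0.42 and 4.30) and Hgf (1.62 and 9.61) were the higher ones, and 2 of them passed 4-fold. Il3ra read 1.06 in EMPs and was listed at 0 in MCPs.

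**Figure D3:**
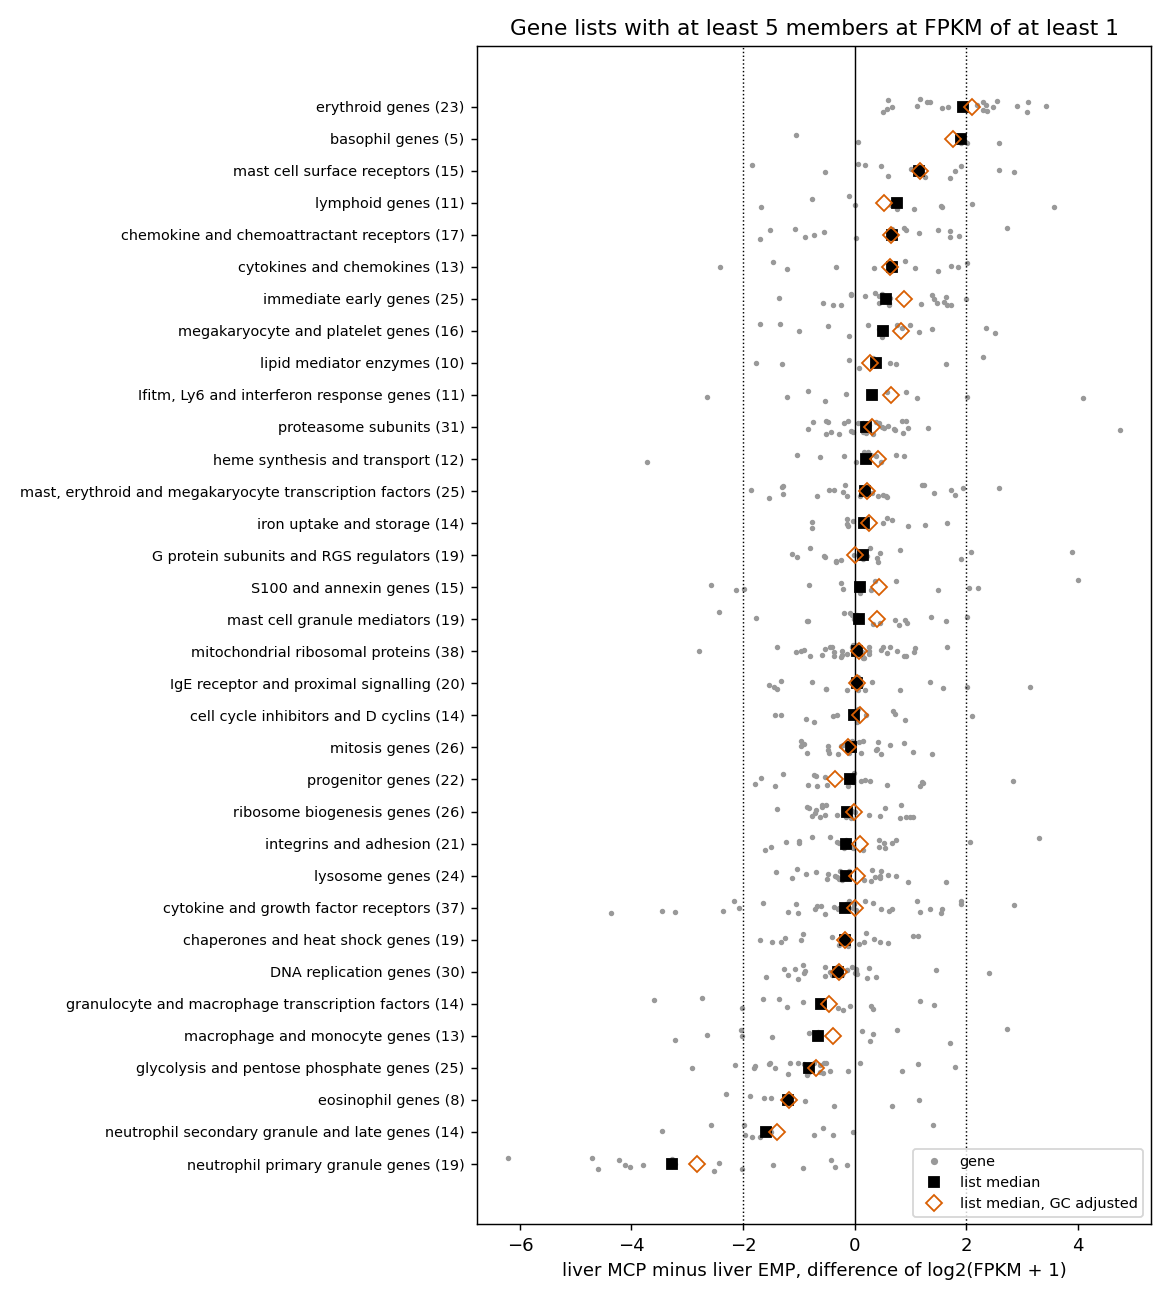
Differences of log2(FPKM + 1), liver MCP minus liver EMP (horizontal axis), for the expressed members of each gene list with at least 5 of them (grey points, number in brackets), with the list median (black squares) and the median adjusted for GC content (open diamonds); dotted lines mark 4-fold. Erythroid genes (1.94) stand at the top, neutrophil primary granule genes (−3.27) at the bottom, and proliferation, lysosome and ribosome lists near 0.

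Other genes among the most strongly higher ones belong to several families; Psmc1, with the largest positive difference of all, was given above with the proteasome. Ifitm1, an interferon-induced membrane protein gene, read 21.7 in EMPs, 387 in liver MCPs, 11.9 in the macrophage-labelled library, 1393 and 45.4 in the limb and 30.3 in skin, 17.8-fold higher in liver MCPs; its paralog Ifitm2 was 224 and 485. S100a10 read 4.91, 93.6, 9.12, 77.6, 10.9 and 8.39, and its binding partner Anxa2 2.49, 15.3, 14.54, 6.45, 3.12 and 0.16, so that the first marked the MCP libraries at E11.5 and the second did not. Rgs1, which dampens chemokine receptor signals, read 4.79, 84.9, 12.6, 60.6, 118 and 232 and was higher in all 4 mast cell lineage libraries than in the other 2. Ahr, the aryl hydrocarbon receptor, read 0.71, 16.3, 1.33, 54.9, 17.3 and 0.42 and was 23.0-fold higher (17.2 to 31.3). Cd55, a complement regulator (0.69 and 14.8), and Gpr183, an oxysterol receptor (1 and 17.6), were 21.4-fold and 17.6-fold higher. Cd3g, a T cell receptor chain listed at 0 in EMPs, had an FPKM of 10.9 in liver MCPs, of 24.8 and 3.26 in those of the limb, and of at most 0.22 elsewhere. Lymphoid genes passed 2-fold upward in 5 of 11 expressed members and downward in 1, the former including Cd7 (0.24 and 4.35) and Rag2 (0.64 and 2.42). Eef1a1, a translation factor with many processed copies in the genome, read 33.3 and 294, and such copies make its value uncertain.

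**Figure D4:**
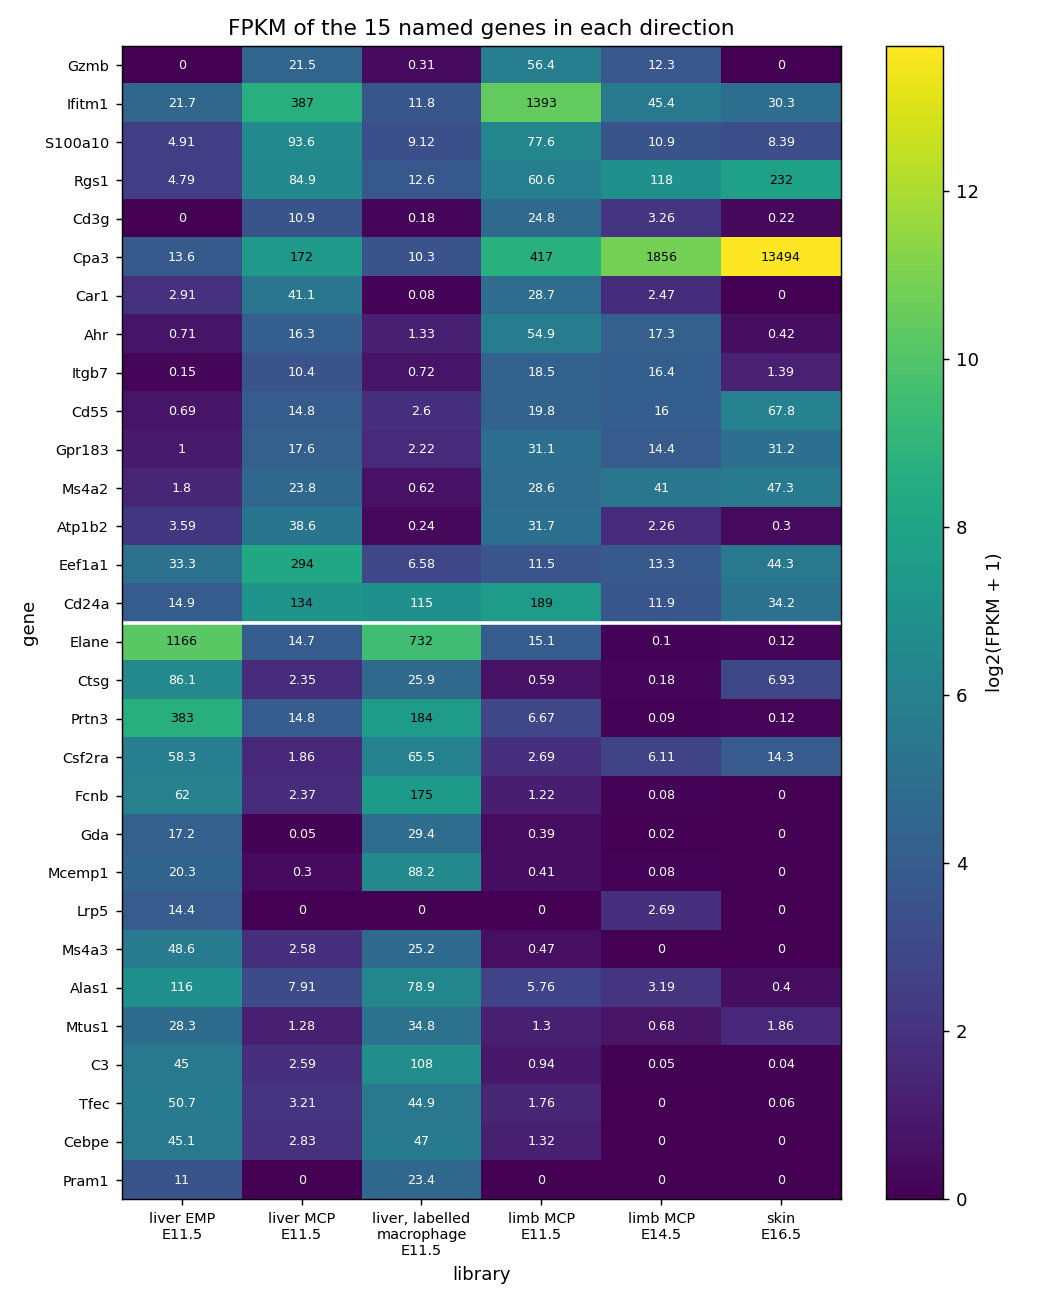
FPKM (printed in each cell, colour for log2(FPKM + 1)) in all 6 libraries of the 15 named genes higher in MCPs (above the white line) and the 15 lower (below it), the largest differences once predicted and ribosomal protein genes and genes of general cell function listed at 0, such as Psmc1, are left out. Elane reads 1166 in EMPs and 14.7 in liver MCPs, and Cpa3 13.6 and 172, with 13494 in skin.

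Lower genes outside the granule included some of metabolism and innate defence. C3, a complement protein, was 17.4-fold lower (45.0 and 2.59), Tfec, a factor of the MITF family, 15.8-fold (50.7 and 3.21) and Mtus1, a microtubule-binding protein gene, 22.1-fold (28.3 and 1.28). For these 3 genes the macrophage-labelled library (108, 44.9 and 34.8) stood near EMPs or above them. Pram1, an adaptor of neutrophils, read 11.03 in EMPs and was listed at 0 in MCPs. Lrp5, a Wnt co-receptor, read 14.4 in EMPs and was listed at 0 in liver MCPs, in the macrophage-labelled library, in limb MCPs at E11.5 and in skin. Among 25 glycolysis and pentose phosphate genes 10 were at least 2-fold lower and 2 higher (median −0.82, and −0.70 adjusted for GC content, where 5 were lower and 3 higher). Gapdh (1285 and 445), Pkm (225 and 78.0), Pgd (124 and 27.3), G6pdx (127 and 36.4) and Hk3 (9.38 and 0.37) were lower, and the glucose transporter gene Slc2a3 (8.15 and 31.0) was higher. Immediate early genes passed 2-fold upward in 9 of 25 expressed members and downward in 1 (median 0.56), with Egr3 (0.47 and 3.87) and Btg2 (6.24 and 21.5) among them. Proliferation genes differed little: of 26 mitosis genes, 2 passed 2-fold upward and 0 downward, and of 30 DNA replication genes 2 upward and 5 downward. Cdk6, a cyclin D kinase, was 2.73-fold lower (154 and 56.4) and Cdkn1c, a kinase inhibitor, 12.9-fold higher (0.38 and 4.91).

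The called genes were then read in a comparison that shares no library with the call, limb MCPs at E11.5 minus the macrophage-labelled liver library. Tissue and cell type differ there at once. The macrophage-labelled library was rich in granulocyte transcripts, with Prg2 at 5617, Ear6 at 1632, S100a9 at 1384, Elane at 732 and Ngp at 693. Of its macrophage markers, Lyz2, which is on the neutrophil list too, read 2633, Csf1r 34.1, Cd68 20.8 and Adgre1 18.4. The complement genes C1qb, C1qc and C1qa, of mature macrophages, read 6.82, 2.89 and 0.17. All 3369 genes of the liver comparison were read, with no FPKM limit in the limb comparison: 68 (2.02%) were 4-fold or more higher in limb MCPs and 167 (4.96%) lower, with a median of −0.004. Of the 60 genes called higher in liver MCPs, 30 (50%) passed 4-fold upward and 1, the globin gene Hbb-b1, downward, and their median was 1.88. In all, 15 of the 60 had a difference below 0. Of the 104 called lower, 72 (69.2%) were at least 4-fold lower and 0 higher, and their median was −2.77. With limb MCPs at E14.5 in place of E11.5, 22 of 60 were higher and 3 lower, where 2.29% of the 3369 genes were higher, and 75 of 104 were lower and 0 higher, where 5.67% were lower. GC content, which went with the liver difference, had a rho of −0.02 in the limb comparison, over 2984 genes with an FPKM of at least 10 there. With both comparisons adjusted for it, of the genes called after adjustment, 31 of 56 called higher were past 4-fold in the same direction and 1 in the opposite one, and 67 of 86 called lower in the same direction. The share of all genes past 4-fold after adjustment is not given, so these adjusted counts have no background.

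**Figure D5:**
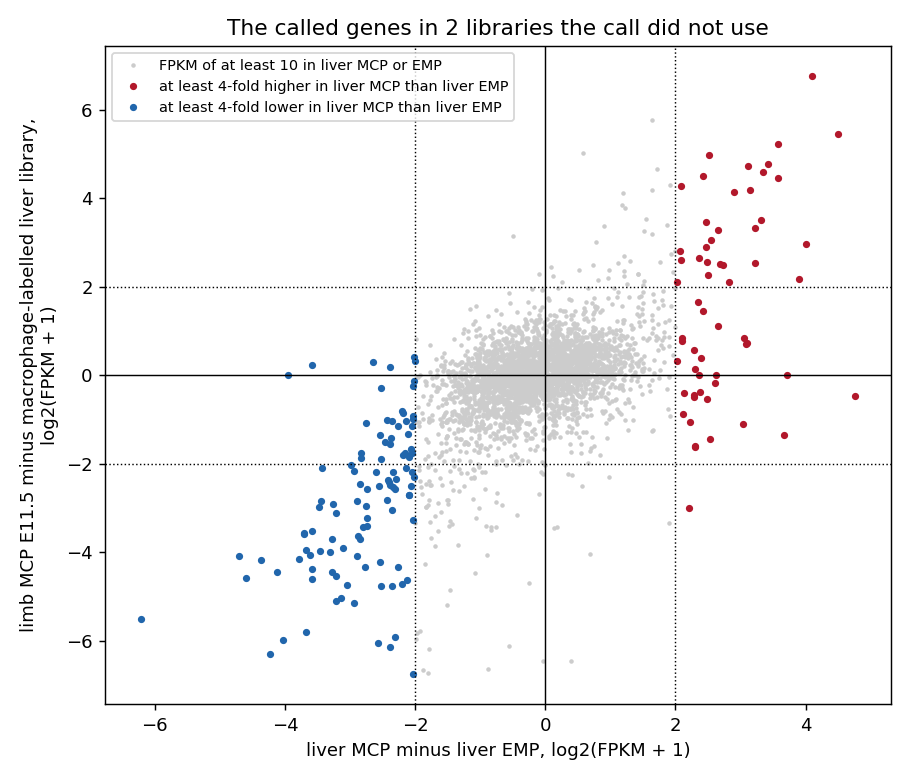
Difference of log2(FPKM + 1) between liver MCPs and liver EMPs (horizontal axis) and between limb MCPs at E11.5 and the macrophage-labelled liver library (vertical axis), for the 3369 genes of the liver comparison; red and blue points are genes called higher and lower in the liver, and dotted lines mark 4-fold. Of the red points 30 of 60 lie above the upper dotted line and 1 below the lower one, and of the blue points 72 of 104 lie below the lower one.

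By level, 37 of the 60 genes called higher (61.7%) had an FPKM of at least 10 in limb MCPs at E11.5, against 66.7% of all 3369 genes, and 37 (61.7% against 69.1%) at E14.5. In skin 27 did (45%, against 29.9% of all genes) and in the macrophage-labelled library 15 (25%, against 69.1%). The highest of the 6 values was in liver MCPs for 31 of them, in limb MCPs at E11.5 for 11, at E14.5 for 8 and in skin for 10. Of the 104 genes called lower, 89 (85.6%, against 69.1% of all genes) reached an FPKM of 10 in the macrophage-labelled library, 23 (22.1%) and 13 (12.5%) in the limb at E11.5 and E14.5 and 8 (7.69%) in skin. Their median FPKM was 27.8 in EMPs, 3.18 in liver MCPs, 31.2 in the macrophage-labelled library, 2.79 and 1.13 in the limb and 0.305 in skin. The highest value was in EMPs for 55, in the macrophage-labelled library for 48 and in skin for 1. For comparison, liver MCPs held the highest value for 952 of all 3369 genes, and EMPs did for 1170. Skin did for 136, the macrophage-labelled library for 439, and limb MCPs for 303 at E11.5 and 369 at E14.5. A gene called higher cannot peak in EMPs, nor a gene called lower in liver MCPs. Where called genes peaked was therefore partly set by the call.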

How the data were processed

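Per the labels' protocols, RNA of sorted cells was extracted with TRIzol and sequenced on Illumina HiSeq at the Beijing Genomics Institute. The authors deposited 1 table of FPKM values with 2 decimals. The submitters' processing notes name Bowtie2, RSEM and the build mm10 (GRCm38), with versions and annotation not given in the sources used here. Of 17913 rows, 4 with a repeated name were dropped, and 22 names turned into dates stayed in the table without being named. Each column was matched to a label.

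Differences of log2(FPKM + 1) were computed unscaled and after median-of-ratios scaling over 8774 genes above 0 in all 6 libraries. With 1 library a group no test was run. Named genes were the 15 largest differences in each direction called under both scalings, leaving out histone, small RNA, ribosomal protein and predicted genes and general cell function genes listed at 0 (such as Psmc1), and, of the 38 gene lists (798 genes of the table), members past 4-fold, up to 4 with the largest differences, up to 4 with the highest FPKM, and transcription factors with an FPKM of at least 10. Some genes under this rule are not reported here. The genes compared and the lists were chosen with earlier results of these data known. Of the 3369 genes, 3272 (97.1%) had a GC value, from the longest coding transcript of GENCODE M21, and GC adjustment took off the median of 20 GC bins. Depth was the total that brought implied fragments of short single-transcript genes closest to whole numbers (chosen after seeing the data). It left 76.9% to 78.4% of values no more than 0.2 from a whole number, where chance gives 40%. The depth and calling steps were tested on simulated data. Alternatives were pseudocounts, filters, scalings, the fold and GC adjustment. Python 3.11.15, pandas 2.3.3, NumPy 2.4.6, SciPy 1.17.1 and matplotlib 3.10.9 were used.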

Additional observations from a re-analysis of the deposited data

How the results depend on the processing

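No paired analysis was possible because each group held 1 library. None of the 30 named genes, 15 in each direction, changed direction under the pseudocounts, scalings and GC adjustment run. Genes called higher numbered 287 and genes called lower 534 at 2-fold, 26 and 47 with an FPKM of at least 30, 132 and 162 with no expression filter, and 23 and 42 with a pseudocount of 5. With that pseudocount Ahr, Cd3g, Cd55, Gpr183, Itgb7, Lrp5 and Pram1 fell short of 4-fold. No list median moved by more than the SD of 0.61 under any scaling or the GC adjustment. With an FPKM of at least 30 the list medians were 1.11 for Ifitm, Ly6 and interferon genes, −0.63 for IgE receptor signalling, −1.12 for S100 and annexin genes, −1.09 for cell cycle inhibitors, −1.21 for cytokines, −2.74 for granulocyte and macrophage factors, 0.13 for macrophage genes, −0.84 for granule mediators and −1.31 for mast cell and erythroid factors; fewer members enter. With no filter they were 0.55 for basophil, 0.070 for hepatocyte, 0 for macrophage and stromal genes, 0.25 for mast cell receptors and −0.64 for secondary granule genes, since genes near 0 enter. A pseudocount of 5 gave 0.78 for basophil genes, 0.46 for mast cell receptors, −2.28 for primary granule genes and 0.53 for stromal genes, and one of 0.1 gave 1.35 for chemokine receptors, 1.33 for cytokines and 1.38 for hepatocyte genes. An alternative chosen after seeing the data set an FPKM limit of 10 in limb MCPs at E11.5 or the macrophage-labelled library. Of the called genes that passed it, 28 of 39 called higher and 68 of 89 called lower were past 4-fold in the same direction there. A gene can pass this limit through the library where it is high. The share of all genes under it is not given, so these counts have no background. Depth limits low genes, and no fold is given for a gene listed at 0.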

Other observations

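Some called genes belong to none of the gene lists, 35 of 60 higher and 74 of 104 lower, and those named here were chosen after their values were seen. Higher in liver MCPs were Lmo4, a LIM-only cofactor (4 in EMPs and 25.8 in MCPs), Prkcq, the protein kinase C isoform of T cell and mast cell signalling (1.71 and 16), Rab37, a GTPase of secretory granules (2.36 and 12.7), and Crip1 (5.97 and 48.3). Lower were F13a1, a subunit of coagulation factor XIII (46.0 and 4.07), Olr1, a scavenger receptor for oxidized lipoprotein (72.2 and 7.87), Orai1, the pore of the store-operated calcium channel (17.6 and 1.75), Pglyrp1, a peptidoglycan-binding granule protein (46.5 and 4.38), and Unc93b1, which carries Toll-like receptors to endosomes (25.5 and 2.98). Sdf2l1 (112 and 19.5) and Creld2 (46.7 and 9.76), genes of protein folding in the endoplasmic reticulum, were lower too.

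Genes of general cell function also stood among the called genes. Psmc1, Matr3 and Usf3 were listed at 0 in EMPs and read 26.03, 12.2 and 11.7 in MCPs, and the ribosomal protein genes Rps25 (91.6 and 486) and Rps27 (38.8 and 244) were more than 4-fold higher, although processed copies of such genes share their reads.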
